A study of Mus musculus with 4 samples.

Results

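The 10 genes described here are *Gsn*, *Gtpbp2*, *Ube2d2a*, *Mgarp*, *Cdr2l*, *Fmc1*, *Akr1e1*, *Ap2b1*, *Myh9* and *Ivns1abp*, out of 18193 genes with a named probe set on the array. They were picked on their log2 changes of Hand2NC over wild-type on these same arrays: the change had the same sign at both stages and was large for a gene of that signal. The first 5 had higher and the other 5 lower signals in Hand2NC, and their log2 changes are therefore a description of the choice and support nothing. What the choice did not use are the genes next to them on the chromosomes and the bases in front of their start sites. The level in the E12.5 head against the E11.5 whole body was not used either, but it is built from the same signals. Their 32 probe sets, of 34945 that carry 1 gene symbol, were all examined.

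Gene expression was measured on 4 Affymetrix Mouse Genome 430 2.0 arrays, 1 for each genotype and stage, with RNA of several embryos pooled before the hybridization. With a single array in each group nothing shows the spread between replicates, so that no test was run and no p-value is given. The Hand2NC embryos carried *Hand2* CAT/+ and *Wnt1-Cre*, in which Cre made by neural crest cells and by the dorsal neural tube switches on a *Hand2* transgene, and the others were wild-type. All were of a mixed C57BL/6J x ICR background. The arrays were an E12.5 Hand2NC head, an E12.5 wild-type head, an E11.5 Hand2NC whole body and an E11.5 wild-type whole body, as the sample labels name them. A legend of the study names heads at the earlier stage too, against the labels, which are followed here. Stage and tissue, as labelled, cannot be told apart. In pooled tissue RNA, fewer cells of a type and less RNA per cell cannot be told apart either.

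The tissue labels and the genotypes were read on their own markers. Of 6 heart muscle markers, 2 lay above the signal filter in the E12.5 heads and 6 in the E11.5 embryos. *Afp*, a fetal liver gene, had signals of 158 in Hand2NC and 133 in wild-type heads at E12.5, and of 18323 in Hand2NC and 17146 in wild-type embryos at E11.5. Signals of trunk organs were thus present at E11.5 and low at E12.5, while all 5 forebrain markers measured were above the filter at both stages. *Hand2* was read by 3 probe sets. The probe set 1422221_at had signals of 706 in Hand2NC and 33.4 in wild-type heads at E12.5, and of 314 in Hand2NC and 67.1 in wild-type embryos at E11.5. The brighter 1436041_at had 839 in Hand2NC and 592 in wild-type heads, and 1244 in Hand2NC and 1214 in wild-type embryos, log2 changes of 0.50 and 0.04. The third, 1443854_at, was dim on all 4 arrays. The median signal of an array was between 97.2 and 106 (arbitrary units, scaled to a trimmed mean of 500).

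These genes belong to different parts of cell biology. Gelsolin (*Gsn*) severs and caps actin filaments, and *Myh9* encodes the heavy chain of non-muscle myosin IIA, which pulls on them. *Ap2b1* encodes the beta subunit of AP-2, the adaptor that links clathrin to cargo in endocytosis. *Gtpbp2* encodes a GTPase of the rescue of stalled ribosomes, and *Ube2d2a* an E2 enzyme that passes ubiquitin on to substrates. *Fmc1* is named after a yeast protein needed to assemble the mitochondrial ATP synthase, and *Mgarp* encodes a mitochondrial protein tied to the transport of mitochondria along microtubules. *Akr1e1* encodes an aldo-keto reductase. *Cdr2l* encodes a relative of the *Cdr2* antigen, which is known from autoimmune cerebellar degeneration in humans. *Ivns1abp* encodes a BTB-kelch protein that binds the NS1 protein of influenza virus and actin.

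Hand2 is a basic helix-loop-helix factor that binds DNA as a dimer at E-boxes, the 6-base motif CANNTG, among them the form CATCTG, which reads CAGATG on the opposite strand. The 250 bases in front of the start sites of these genes were searched for this motif on both strands. Each gene had been chosen for its own change at both stages, not for moving with the others. RefSeq windows of the build GRCm38.p6 were at hand for 8 of the 10 genes (11 windows, since *Gsn* has 3 and *Ivns1abp* 2). The form CATCTG or CAGATG stood in 3 windows, those of *Gsn*, *Ap2b1* and *Myh9*, and in 14.4% of all 32851 windows (3 of the 8 genes, and 16.3% of 27025 genes). Any CANNTG stood in 8 of the 11 windows and in 66.2% of all windows, and each CATCTG is also counted there. The window of *Gsn* that holds it lies at chr2:35282130-35282379 on the plus strand, that of *Ap2b1* at chr11:83302447-83302696 on the plus strand, that of *Myh9* at chr15:77842176-77842425 on the minus strand and that of *Mgarp*, shown because its log2 changes were the largest of the 10 and because it has no CANNTG, at chr3:51396548-51396797 on the minus strand. All are printed 5′ to 3′ on the strand of the gene, the last base being the one before the start, with CATCTG or CAGATG in capitals.
Gsn: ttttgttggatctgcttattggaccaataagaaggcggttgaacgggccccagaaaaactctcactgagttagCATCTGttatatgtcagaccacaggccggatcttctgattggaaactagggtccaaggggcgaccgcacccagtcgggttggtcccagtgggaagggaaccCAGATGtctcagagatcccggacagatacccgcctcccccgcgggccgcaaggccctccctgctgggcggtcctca
Ap2b1: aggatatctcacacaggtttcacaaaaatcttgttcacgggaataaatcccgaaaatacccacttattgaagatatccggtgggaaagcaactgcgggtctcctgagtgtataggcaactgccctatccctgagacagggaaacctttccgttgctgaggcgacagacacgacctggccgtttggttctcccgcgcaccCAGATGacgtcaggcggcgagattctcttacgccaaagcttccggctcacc
Myh9: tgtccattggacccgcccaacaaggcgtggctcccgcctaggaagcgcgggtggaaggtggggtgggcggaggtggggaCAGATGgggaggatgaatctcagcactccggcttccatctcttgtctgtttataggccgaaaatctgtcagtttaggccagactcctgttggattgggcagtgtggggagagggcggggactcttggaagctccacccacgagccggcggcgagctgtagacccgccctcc
Mgarp: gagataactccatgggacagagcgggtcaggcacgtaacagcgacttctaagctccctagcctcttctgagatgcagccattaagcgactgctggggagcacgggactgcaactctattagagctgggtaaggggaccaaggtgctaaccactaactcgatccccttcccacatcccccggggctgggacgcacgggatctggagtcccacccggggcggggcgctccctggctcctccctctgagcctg
In the *Gsn* window the matches begin 177 and 76 bases before the start, and 1.32% of all windows hold 2 or more. The match of *Ap2b1* begins 51 bases and that of *Myh9* 171 bases before the start. By the probe set that was brightest over the 4 arrays, *Gsn* was higher and *Ap2b1* and *Myh9* were lower in Hand2NC. The choice of the genes fixed these directions. *Gsn* has 6 probe sets, of which only 1456312_x_at was higher at both stages. Some further probe sets of *Ap2b1* and *Myh9* also had another sign, and nothing is read from the directions. A match is a run of letters and was not tested as a binding site.

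The signals of the 5 higher genes are those of the probe set that was brightest on average over the 4 arrays, here called the highest. *Gsn* had signals of 2679 in Hand2NC and 1927 in wild-type heads at E12.5, and of 2635 in Hand2NC and 1702 in wild-type embryos at E11.5. The 2 Hand2NC signals lay above both wild-type ones, with log2 changes of Hand2NC over wild-type of 0.48 at E12.5 and 0.63 at E11.5, the order kept below. *Gtpbp2* had 1038 in Hand2NC and 660.0 in wild-type at E12.5, and 823 in Hand2NC and 566 in wild-type at E11.5 (log2 changes 0.65 and 0.54), and its 2 Hand2NC signals lay above both wild-type ones. *Ube2d2a* had 7433.5 in Hand2NC and 6003 in wild-type at E12.5, and 9205 in Hand2NC and 7004 in wild-type at E11.5 (log2 changes 0.31 and 0.39). Its 2 Hand2NC signals also lay above both wild-type ones, though its changes were the smallest among the higher genes. *Mgarp*, the mitochondrial transport gene, had 271 in Hand2NC and 157 in wild-type at E12.5, and 186 in Hand2NC and 90.5 in wild-type at E11.5. Its log2 changes of 0.79 and 1.04, or 1.72-fold and 2.06-fold, were the largest of the 10 genes, and the wild-type signal at E11.5 lay below the median of its array. *Mgarp* was above the filter at E11.5 through the Hand2NC array alone and so had to differ there, while the other 9 genes exceeded the median on all 4 arrays. *Cdr2l* had 661 in Hand2NC and 450.1 in wild-type at E12.5, and 445 in Hand2NC and 299 in wild-type at E11.5 (log2 changes 0.56 and 0.57). Here the E11.5 Hand2NC signal was close to the E12.5 wild-type one, so that the genotypes separated only within a stage.

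The other 5 genes had lower signals in Hand2NC at both stages. *Fmc1* had 1067 in Hand2NC and 1441 in wild-type at E12.5, and 884 in Hand2NC and 1491 in wild-type at E11.5. This was 1.35-fold lower at E12.5 and 1.69-fold lower at E11.5 (log2 changes -0.43 and -0.75), with the wild-type signals of both stages close to each other. *Akr1e1* had 410.2 in Hand2NC and 604 in wild-type at E12.5, and 271 in Hand2NC and 423 in wild-type at E11.5 (log2 changes -0.56 and -0.64). Its signals in all ran higher in the E12.5 heads, and the E12.5 Hand2NC head had about the signal of the E11.5 wild-type embryo. *Ap2b1* had 2109.9 in Hand2NC and 2928 in wild-type at E12.5, and 1789.8 in Hand2NC and 2230.1 in wild-type at E11.5 (log2 changes -0.47 and -0.32). Both Hand2NC signals of this endocytosis gene were under both wild-type ones. *Myh9* had 3083 in Hand2NC and 3731 in wild-type at E12.5, and 3293 in Hand2NC and 4115 in wild-type at E11.5 (log2 changes -0.27 and -0.32). *Ivns1abp* had 11013 in Hand2NC and 13045 in wild-type at E12.5, and 10795 in Hand2NC and 13219 in wild-type at E11.5 (log2 changes -0.24 and -0.29). For *Myh9* and *Ivns1abp* the Hand2NC signals likewise lay under the wild-type ones of both stages, by the smallest changes of the 10 genes at E12.5.

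**Figure D1:**
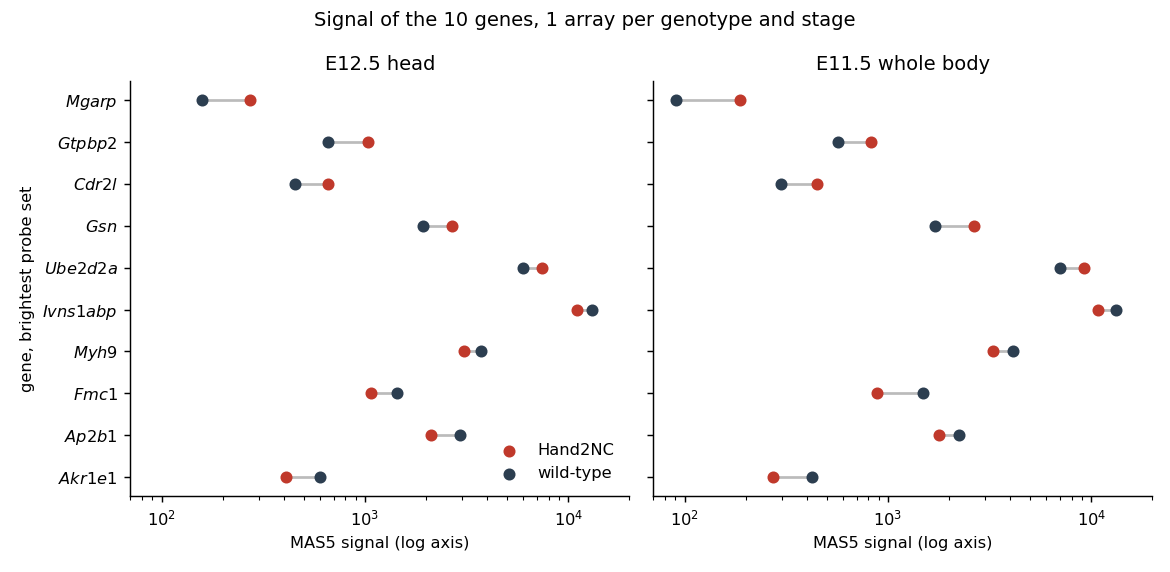
MAS5 signal (log axis) of the highest probe set of each of the 10 genes on the Hand2NC (red) and wild-type (dark) arrays, in E12.5 heads (left) and E11.5 whole bodies (right), 1 point per array with no error bars because each group has 1 array. The red point lies right of the dark one for the 5 genes from *Mgarp* to *Ube2d2a* and left of it for the 5 from *Ivns1abp* to *Akr1e1*, at both stages.

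By size alone few of these changes were large. A gene was counted at a stage only above the signal filter, which asks that the brighter of the 2 arrays reach its own median. At E12.5, a change of 1.5-fold or more was found upwards in Hand2NC for 144 of 11815 genes (1.22%) and downwards for 177 (1.5%), and of the 10 genes *Gtpbp2* and *Mgarp* were among the higher ones and 0 among the lower ones. At E11.5, 173 of 11886 genes (1.46%) changed so upwards, *Gsn* and *Mgarp* among them, and 170 (1.43%) downwards, *Fmc1* and *Akr1e1* among them. At both stages, 10 of 11453 genes (0.0873%) did so upwards, of which *Mgarp* was 1, and 6 genes (0.0524%) downwards, none of them among the 10. The choice used this contrast, and nothing is read from these counts. The size was set instead against the local spread, the robust standard deviation of log2 changes among 500 genes nearest in signal. It was 0.11 for *Gsn*, 0.08 for *Ube2d2a* and 0.26 for *Mgarp* at E12.5, so that equal ratios stand for unequal folds. Of each gene, the smaller of its 2 ratios of log2 change to local spread was taken. It ran between 2.53 (*Ap2b1*) and 4.43 (*Gsn*) among the 10.

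All 10 genes passed the filter at both stages. Ranked by the smaller ratio among 5453 genes above the filter whose sign was the same at both stages, 5 of the 10 were in the first 10 and 9 in the first 20, and the last was *Ap2b1* at rank 22. Genes around them that were not chosen had like values. The first rank was held by *H2az2*, which encodes a histone H2A.Z, with 7260 in Hand2NC and 12140.5 in wild-type at E12.5, and 6519.9 in Hand2NC and 11446 in wild-type at E11.5. Its log2 changes were -0.74 and -0.81, and its ratio of 7.49 stood clear of the 4.43 of *Gsn*. *Myf5*, a determination factor of skeletal muscle, held rank 4 with log2 changes of 1.13 and 1.13. The vesicular monoamine transporter gene *Slc18a2* (0.65 and 0.72), the Notch target *Hes5* (0.48 and 0.33), *Rpl39* (0.67 and 0.88) and *Hoxb3* (0.33 and 0.40) were the next higher genes. The other lower genes were *Alas2*, which encodes the erythroid enzyme of haem synthesis (-0.67 and -0.42), *Lca5l* (-1.61 and -1.05), *Sltm* (-0.34 and -0.29) and *AI606473* (-0.61 and -1.13). Over all 11453 genes, 47.6% had the same sign at both stages (23.1% higher and 24.5% lower), and the median log2 change was 0.004 at E12.5 and -0.01 at E11.5.

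**Figure D2:**
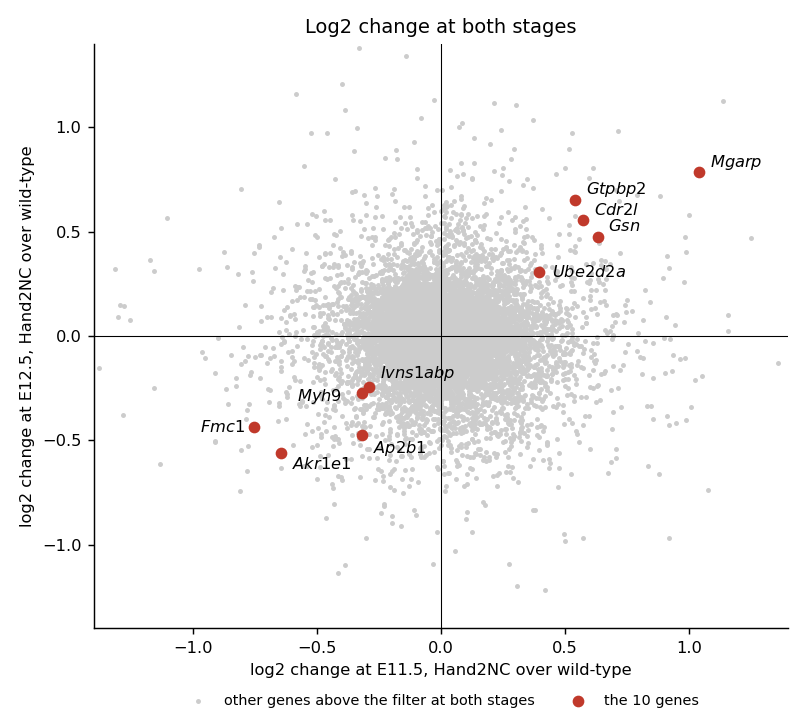
Log2 change of Hand2NC over wild-type at E12.5 (vertical axis) against that at E11.5 (horizontal axis), 1 grey point for each gene above the filter at both stages and a red point for each of the 10 genes. The red points lie in the corners where both changes have the same sign, as the choice required, and 18 of 11453 genes fall outside the axes.

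The array reads 8 of the 10 genes with more than 1 probe set. Most further probe sets did not have the sign of the highest one at both stages, and the same held over all genes. Of 22 further probe sets, 9 had the sign of the highest probe set of their gene at E12.5, 11 at E11.5 and 5 at both stages (22.7%). Over all genes above the filter at both stages this was so at both stages for 3984 of 14334 further probe sets (27.8%). Of the 18 that were above the filter at both stages, which belong to 6 of the genes, 4 had the same sign at both (22.2%), against 2404 of 8092 (29.7%) over all genes. These shares come from the contrast that chose the genes and are given as a description.

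*Gsn* has 6 probe sets, and only 1456312_x_at was higher in Hand2NC at both stages. The probe set 1415812_at had signals of 1832 in Hand2NC and 1949 in wild-type at E12.5, and of 1596 in Hand2NC and 1729 in wild-type at E11.5 (log2 changes -0.09 and -0.12). For 1437171_x_at they were 1588 in Hand2NC and 2048 in wild-type at E12.5, and 1619 in Hand2NC and 1713 in wild-type at E11.5 (-0.37 and -0.08). In the wild-type arrays this was the highest *Gsn* probe set, so that 1456312_x_at is the highest over 4 arrays only through its Hand2NC signals. The probe set 1436991_x_at had log2 changes of -0.16 and 0.03, and 1456569_x_at, dimmer, had -1.08 and 0.46. The last, 1456568_at, lay below the filter at both stages. In the naming of Affymetrix, _x_at marks a probe set with probes that may also bind unrelated transcripts, _s_at one shared by several transcripts and _a_at one that reads several transcripts of 1 gene.

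*Gtpbp2* shows the same picture. Its 1448437_a_at had the log2 changes of 0.65 and 0.54, whereas 1416690_at had signals of 738 in Hand2NC and 789 in wild-type at E12.5, and of 676 in Hand2NC and 699.7 in wild-type at E11.5 (-0.10 and -0.05). This again was the highest probe set in the wild-type arrays. The dimmer 1442305_at had 0.14 and 0.10, and 1416691_at had 0.40 and -0.14. *Ube2d2a* was higher in Hand2NC by 0.31 and 0.39 in 1416476_a_at, and nearly equal in 1416477_at, with 4604 in Hand2NC and 4530.5 in wild-type at E12.5, and 4599.5 in Hand2NC and 4586 in wild-type at E11.5 (0.02 and 0.004). Its 1448356_at had 0.02 and -0.04 and its 1416475_at had -0.07 and -0.06, while the dim 1445885_at had 0.16 and 1.34. *Gsn*, *Gtpbp2* and *Ube2d2a* were thus higher in Hand2NC in 1 of several bright probe sets each.

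The lower genes divided in the same manner. *Ap2b1* was lower in 1452292_at (-0.47 and -0.32), and its 1427077_a_at had signals of 481 in Hand2NC and 433 in wild-type at E12.5, and of 413 in Hand2NC and 458 in wild-type at E11.5 (0.15 and -0.15). Its 1458971_at had 0.16 and -0.23, so both went the opposite way at E12.5 and the same way at E11.5. *Myh9* was lower in 1420171_s_at, and at E11.5 also in 1417472_at, with 1001 in Hand2NC and 1211 in wild-type (-0.27), though at E12.5 this probe set had a log2 change of -0.03. The other 2 *Myh9* probe sets above the filter had 0.05 and -0.06 (1420172_at) and -0.04 and 0.33 (1420170_at). *Ivns1abp* was lower in 1425718_a_at, and higher in 1450084_s_at, with 7346 in Hand2NC and 6656 in wild-type at E12.5, and 7458 in Hand2NC and 7038 in wild-type at E11.5 (0.14 and 0.08). The dimmer 1420961_a_at had 0.10 and 0.09. *Akr1e1* and *Cdr2l* have 1 further probe set each, below the filter at both stages, with -0.41 and -0.22 for 1446483_at of *Akr1e1* and -0.17 and 0.57 for 1445027_at of *Cdr2l*. *Fmc1* and *Mgarp* have 1 probe set, so that nothing else on the array reads them.

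**Figure D3:**
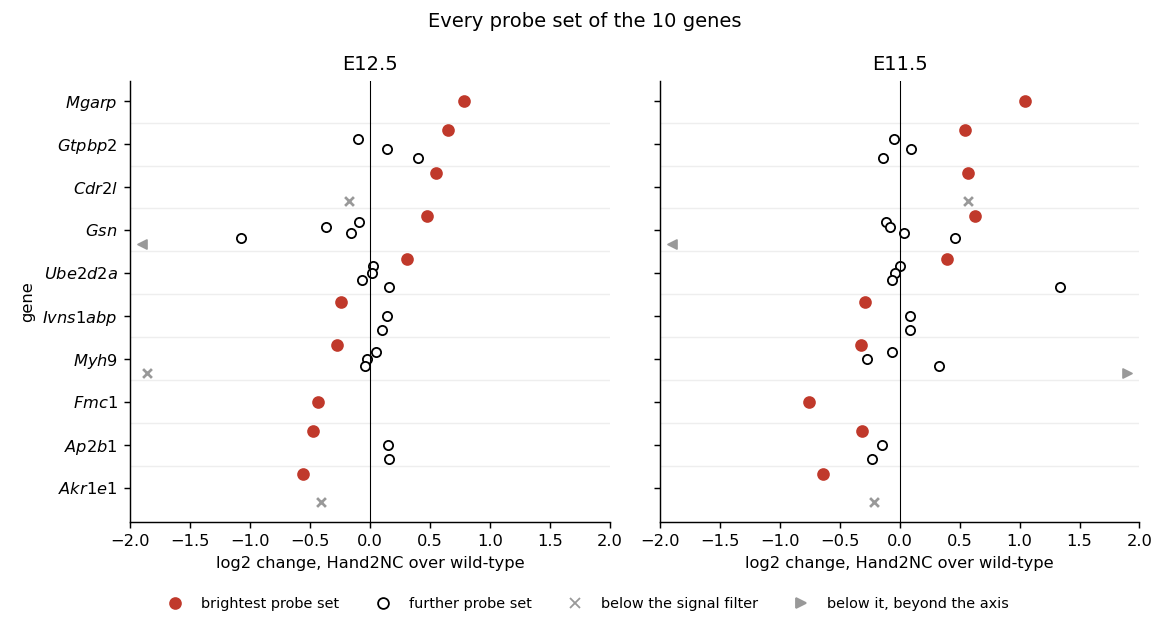
Log2 change of Hand2NC over wild-type at E12.5 (left) and E11.5 (right) for all 32 probe sets of the 10 genes, with the highest probe set of each gene in red, further ones as open circles, those below the filter as grey crosses and those beyond the axis as grey triangles. Of the further probe sets of *Gsn*, *Gtpbp2*, *Ube2d2a* and *Ivns1abp*, most lie nearer to 0 than the red point or on its other side.

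The genes that lie next to these 10 on the chromosomes were then compared, taking the 5 nearest genes above the filter on each side in RefSeq order. *Cdr2l* and *Ap2b1* are both on chromosome 11, and the other 8 are each on a chromosome of their own (2, 17, 18, 3, 6, 13, 15 and 1, in the order *Gsn*, *Gtpbp2*, *Ube2d2a*, *Mgarp*, *Fmc1*, *Akr1e1*, *Myh9*, *Ivns1abp*). Of 99 neighbours, 52 (52.5%) had the sign of their gene at E12.5, 41 (41.4%) at E11.5 and 18 (18.2%) at both stages. From the signs of all genes above the filter, shares of 50%, 50% and 23.8% would be reached. None of the 99 went beyond its local spread the same way as its gene at both stages. At E12.5 none passed 1.5-fold. At E11.5 the 3 that did were *Pcdh10* near *Mgarp* (-0.62), *Cd300a* near *Cdr2l* (0.71) and *Odr4* near *Ivns1abp* (0.66). *Pcdh10* and *Odr4* went the opposite way to their gene, and *Cd300a*, which at E11.5 went with *Cdr2l*, had -0.58 at E12.5.

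Among the nearest genes, *Stom* beside *Gsn* had log2 changes of 0.27 and 0.19, with local spreads of 0.25 and 0.22, and *Rab14* on the other side had 0.059 and 0.115, with local spreads of 0.079 and 0.106. *Sting1* beside *Ube2d2a* had 0.42 and 0.26, with local spreads of 0.38 and 0.28, and *Cxxc5* had 0.04 and 0.06. For *Gsn* and *Ube2d2a* the nearest genes thus had the same sign, and each lay within its local spread at 1 or both stages. Beside *Gtpbp2*, *Mad2l1bp* had 0.28 and -0.06 and *Polh* 0.25 and 0.02, and the 10 neighbours of *Gtpbp2* ran between -0.04 and 0.29 at E12.5 and between -0.28 and 0.13 at E11.5. Around *Mgarp*, *Elf2* had -0.09 and 0.00 and *Ndufc1* 0.02 and -0.04, so that the gene with the largest changes stood between neighbours close to 0. *Fmc1* stood likewise between *Ubn2* (0.01 and -0.03) and *Luc7l2* (0.06 and 0.03), and *Akr1e1* between *Net1* (0.04 and 0.14) and *Klf6* (0.10 and -0.02). *Slfn2* next to *Ap2b1* went the opposite way, with 0.27 and 0.32, and *Rasl10b* had 0.06 and -0.28. The neighbours of *Cdr2l* were *Hid1* (-0.15 and 0.27) and *Mrpl58* (-0.09 and -0.13), those of *Myh9* were *Rbfox2* (-0.23 and 0.28) and *Txn2* (0.08 and -0.07), and those of *Ivns1abp* were *Hmcn1* (-0.18 and -0.01) and *Swt1* (0.04 and -0.09).

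**Figure D4:**
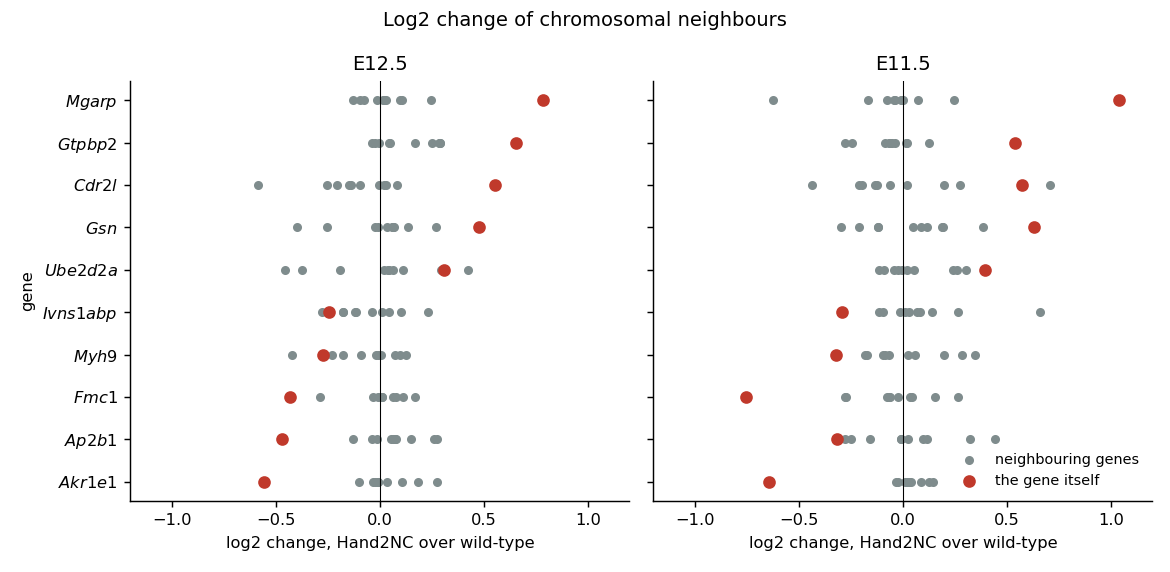
Log2 change of Hand2NC over wild-type at E12.5 (left) and E11.5 (right) for each of the 10 genes (red) and the 5 nearest genes above the filter on each side (grey, 9 in all for *Akr1e1*). The grey points lie around 0, with 52 of 99 on the side of the red point at E12.5 and 41 at E11.5.

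The level in the E12.5 head was set against that in the E11.5 whole body within each genotype. The choice of genes did not use this comparison, but it used the same signals, so the values are not independent of the choice. The wild-type value of *Mgarp* rests on its E11.5 wild-type signal of 90.5, below the median of that array. *Mgarp*, *Cdr2l* and *Akr1e1* had the highest values. *Mgarp* had a log2 level of E12.5 over E11.5 of 0.54 in Hand2NC and 0.79 in wild-type, *Cdr2l* 0.57 in Hand2NC and 0.59 in wild-type, and *Akr1e1* 0.60 in Hand2NC and 0.51 in wild-type. Among 12248 genes above the filter at either stage these lay at the 88.7th, 89.7th and 90.6th percentiles in Hand2NC and at the 92.4th, 87.5th and 84.9th in wild-type. *Akr1e1* in Hand2NC, and *Mgarp* and *Cdr2l* in wild-type, were at least 1.5-fold higher in the head, which 9.85% of all genes were in Hand2NC and 12.7% in wild-type. None of the 10 was 1.5-fold lower, against 5.80% in Hand2NC and 6.91% in wild-type over all genes.

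*Ube2d2a* was the lowest of the 10, with -0.31 in Hand2NC and -0.22 in wild-type, and *Myh9* had -0.10 in Hand2NC and -0.14 in wild-type. *Gtpbp2* had 0.33 in Hand2NC and 0.22 in wild-type, and *Ap2b1* 0.24 in Hand2NC and 0.39 in wild-type. *Gsn* had 0.02 in Hand2NC and 0.18 in wild-type, and *Ivns1abp* 0.03 in Hand2NC and -0.02 in wild-type. The genotypes were farthest apart for *Fmc1*, with 0.27 in Hand2NC and -0.05 in wild-type, which by construction is the difference between its log2 changes at the 2 stages. The median over the 10 genes was 0.25 in Hand2NC and 0.20 in wild-type, and over all 12248 genes 0.04 in Hand2NC and 0.03 in wild-type. Genes higher and genes lower in Hand2NC were both found among those with the higher level in the head. With the mean over probe sets *Ube2d2a* had 0.003 in Hand2NC and 0.24 in wild-type and *Myh9* -0.32 in Hand2NC and 0.66 in wild-type. The wild-type means take in dim E11.5 signals, 45.6 for 1445885_at of *Ube2d2a* and 4.07 for 1440708_at of *Myh9*. Without _s_at, _x_at and _a_at probe sets *Ube2d2a* had 0.002 in Hand2NC and -0.018 in wild-type, so that its low place rests on its highest probe set.

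**Figure D5:**
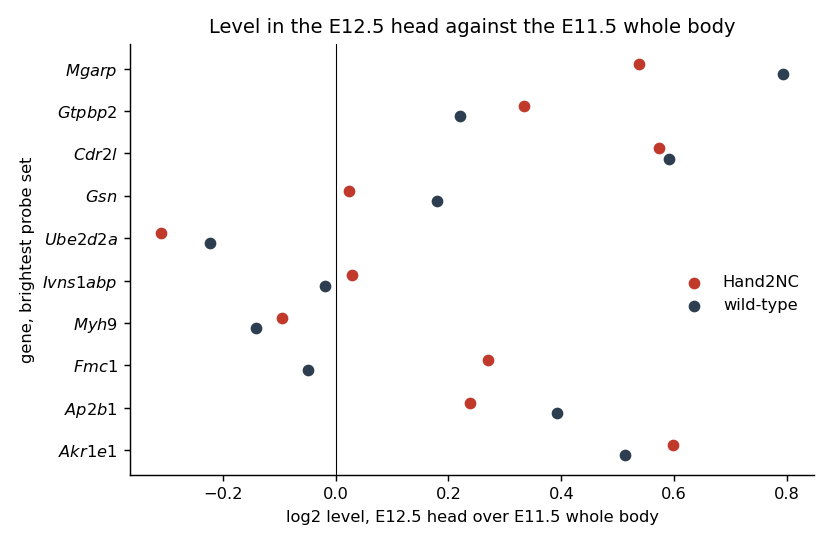
Log2 level in the E12.5 head over that in the E11.5 whole body for the 10 genes, in Hand2NC (red) and wild-type (dark), from 1 array per point. *Mgarp*, *Cdr2l* and *Akr1e1* lie above 0.5 in both genotypes and *Ube2d2a* lies lowest, at -0.31 in Hand2NC and -0.22 in wild-type.

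Relatives and partners of the 10 genes were examined as lists by role, the 10 themselves left out. Of 61 such genes above the filter at E12.5, 1 passed 1.5-fold upwards and 2 downwards in Hand2NC, with a median log2 change of -0.002, and of 61 at E11.5, 0 passed it upwards and 1 downwards, with a median of -0.02. The medians over all genes were 0.004 and -0.01. Of all genes above the filter, 1.22% passed 1.5-fold upwards and 1.5% downwards at E12.5, and 1.46% and 1.43% at E11.5. *Keap1*, a BTB-kelch protein of the list of *Ivns1abp* and the sensor of oxidative stress, had 990 in Hand2NC and 582 in wild-type at E12.5 (0.77), and a log2 change of 0.06 at E11.5. *Atpaf2*, an assembly factor of the ATP synthase like that after which *Fmc1* is named, had 143 in Hand2NC and 274 in wild-type at E12.5 (-0.94), and 0.12 at E11.5. *Capg*, of the gelsolin family, had -0.60 at E12.5 and -0.18 at E11.5, and *Myh14*, a heavy chain of non-muscle myosin II, -0.26 at E12.5 and -0.87 at E11.5. Each of these 4 thus passed 1.5-fold at 1 stage and not at both.

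By role, the 5 other members of the gelsolin family above the filter at E12.5 had a median log2 change of 0.02, and the 4 at E11.5 one of 0.07. The 8 other genes of non-muscle myosin II and its regulators had -0.02 at E12.5 and -0.15 at E11.5. *Myh10*, the heavy chain of non-muscle myosin IIB, had -0.11 and 0.01. The 10 other genes of AP-2 and clathrin had medians of 0.005 and -0.09, and the other AP-2 subunits differed among themselves, with -0.39 and -0.18 for *Ap2a1*, 0.05 and -0.03 for *Ap2a2*, 0.03 and -0.06 for *Ap2m1* and 0.10 and -0.13 for *Ap2s1*. *Ap1b1*, the beta subunit of the related adaptor AP-1, had -0.30 and -0.17. *Ap2a1* and *Ap1b1* thus had the sign of *Ap2b1* at both stages, within 1.5-fold, where 24.5% of all genes were lower at both. *Cltc* (-0.01 and -0.12) and *Dab2* (-0.06 and -0.19) were lower at both as well, and *Epn1* was higher at both (0.27 and 0.30). The rest of the list, *Ap2b1* left out, differed in sign between the stages. The closest relative of *Gtpbp2*, *Gtpbp1*, had -0.24 and 0.21, and the 5 genes of its list had medians of -0.002 and 0.14. *Ube2d3* had 0.34 and -0.09 and *Ube2d1* 0.19 and -0.17, with medians of 0.01 and -0.02 over the 5 other E2 enzymes. The 9 other ATP synthase genes had -0.02 and -0.05, the 3 (E12.5) and 4 (E11.5) other aldo-keto reductases 0.18 and -0.07, the 7 other mitochondrial transport genes -0.01 and 0.06, and the 8 other BTB-kelch and *Cul3* genes 0.005 and 0.06. *Cdr2* had -0.24 and -0.08.

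*Gsn* and *Myh9* are also expressed in platelets, macrophages and smooth muscle, so the summed signals of markers of these cells are given. The 4 platelet markers summed to 1327 in Hand2NC and 1382 in wild-type at E12.5, and to 4099.8 in Hand2NC and 4006 in wild-type at E11.5. The 5 macrophage markers summed to 2981 in Hand2NC and 2829 in wild-type at E12.5, and to 2623 in Hand2NC and 2681 in wild-type at E11.5. The 4 smooth muscle markers summed to 5203 in Hand2NC and 5105 in wild-type at E12.5, and to 7026 in Hand2NC and 7309 in wild-type at E11.5. Each of these sums differed in opposite directions at the 2 stages. Summed signals of other marker lists differed one way at both stages, while single markers within a list went both ways. The 5 erythroid markers summed to 37091 in Hand2NC and 39137 in wild-type at E12.5, and to 53577.5 in Hand2NC and 58247 in wild-type at E11.5. The 5 forebrain markers summed to 5727 in Hand2NC and 6266 in wild-type at E12.5, and to 2618 in Hand2NC and 2785 in wild-type at E11.5. The 5 liver markers, at E12.5 mostly through *Ttr*, which the choroid plexus also expresses, summed to 14462 in Hand2NC and 17921.5 in wild-type at E12.5, and to 36665 in Hand2NC and 37399.9 in wild-type at E11.5. These 3 sums were lower in Hand2NC at both stages. The 6 heart muscle markers summed to 959 in Hand2NC and 931 in wild-type at E12.5, and to 10657 in Hand2NC and 10265 in wild-type at E11.5, and the 5 neural crest and arch mesenchyme markers to 9014 in Hand2NC and 8885 in wild-type at E12.5, and to 8477 in Hand2NC and 8408 in wild-type at E11.5. These 2 sums were higher in Hand2NC at both stages by small differences, and at E12.5 only 2 of the 6 heart muscle markers lay above the filter. Within the neural crest list, *Twist1* (0.34 and 0.13) and *Dlx5* (0.17 and 0.28) were higher at both stages and *Prrx1* (-0.07 and -0.04) lower. *Msx1* had -0.24 and 0.04. *Sox10* had 0.23 at E12.5, and at E11.5 was past 1.5-fold lower, with 170 in Hand2NC and 272 in wild-type (-0.68). The 4 endothelial markers summed to 2018 in Hand2NC and 1864 in wild-type at E12.5, and to 2139 in Hand2NC and 2186 in wild-type at E11.5. The part of these cell types in the changes of the 10 genes was not tested.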

How the data were processed

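The deposited values are MAS5 signals, an intensity on a linear scale for each of 45101 probe sets on 4 arrays (biotin label, 1 colour), made by the authors, whose notes name MAS5 without a version. The 2% trimmed mean was about 498 on every array as deposited. For the present work 64 control probe sets were left out, signals were multiplied by 1 factor per array that sets this mean to 500, and put on the log2 scale. Gene names came from the annotation of the platform, and probe sets with several symbols (932) or none (9160) were not used. Of 18193 genes, 18031 were found in the RefSeq table (GRCm38.p6). It gave the order of neighbours, the chromosomes and the synonyms by which listed genes were found. A gene was read from its probe set of highest log2 signal, averaged over the 4 arrays. It passed the filter of a stage if the higher of both arrays reached that array's median, and was counted past 1.5-fold. The local spread is the median absolute deviation, scaled to a standard deviation, of log2 changes among 500 genes nearest in signal.

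The 10 genes, the gene lists and the settings were chosen with earlier results of these data known. Genes named are the 10, the 5 others in each direction of highest ratio, the nearest neighbours, list genes and neighbours past 1.5-fold, and *Hand2*. *Afp*, *Ttr*, *Myh10*, *Ap2a1*, *Ap2a2*, *Ap2m1*, *Ap2s1*, *Ap1b1*, *Gtpbp1*, *Ube2d1*, *Ube2d3* and *Cdr2* were named after their values were seen. The same holds for *Cltc*, *Dab2*, *Epn1*, *Twist1*, *Dlx5*, *Prrx1* and *Msx1*. With 1 array per group the number of arrays limits the precision and no test was run. The alternatives were unscaled values, median centring, quantile normalization, loess (span 0.3), the mean over probe sets, leaving out _s_at, _x_at and _a_at probe sets, other filters, other folds and 3 or 10 neighbours per side. The probe set highest in wild-type was added after the data were seen. Counting was tested on simulated data. Figures were drawn with matplotlib 3.10.9, loess came from statsmodels 0.14.6, and tables were handled with pandas 2.3.3 and numpy 2.4.6 in Python 3.11.15.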

Additional observations from a re-analysis of the deposited data

Results flagged for a closer look

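The probe set 1440708_at of *Myh9* went opposite ways at the 2 stages. Its signals were 15.7 in Hand2NC and 57.2 in wild-type at E12.5, and 34.0 in Hand2NC and 4.07 in wild-type at E11.5, log2 changes of -1.86 and 3.06. It lay below the signal filter on all 4 arrays, and the difference between the stages was not tested.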

How the results depend on the processing

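All 10 genes kept their sign at both stages with unscaled values, median centring, quantile normalization, loess and low signals raised to the array median, and median centring moved the median of all genes by less than 0.1. The choice of probe set turned signs. With the mean over probe sets *Gsn* had log2 changes of -0.72 at E12.5 and -0.42 at E11.5, and *Myh9* had 0.55 at E11.5, so that 9 of 10 genes kept their sign at E12.5 and 8 of 10 at E11.5. These means take in probe sets below the filter, each counted as much as a bright one. They are 1456568_at of *Gsn* (-3.10 at E12.5 and -3.42 at E11.5) and 1440708_at of *Myh9* (3.06 at E11.5). Without _s_at, _x_at and _a_at probe sets *Gsn* had -0.089 and -0.12, *Gtpbp2* -0.096 and -0.050, and *Myh9* 0.050 at E12.5; 5 of 8 genes kept their sign at E12.5 and 6 of 8 at E11.5, while *Mgarp* and *Ivns1abp*, read by such probe sets only, have no value. With the probe set highest in wild-type *Gsn* had -0.37 and -0.081 and *Gtpbp2* -0.096 and -0.050, with 8 of 10 signs kept at each stage.

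Of the 10 genes, *Mgarp* alone was 1.5-fold higher at both stages. The count was 0 without _s_at, _x_at and _a_at probe sets, with both arrays at or above their median, with the brighter array at its 75th percentile and at 2-fold, and 4 at 1.3-fold, where 2 of the 10 were lower. Over all genes, those higher at both stages (10) numbered 33 with the mean over probe sets, 416 with no filter, 3 with both arrays at their median, 0 at the 75th percentile, 6 with low signals raised, 1 at 2-fold and 42 at 1.3-fold. Those lower at both stages (6) numbered 32, 566, 2, 1, 3, 1 and 55 in the same order. With no filter, both arrays at their median and the 75th percentile, 1850, 63 and 21 genes were higher at E12.5 and 1857, 89 and 22 lower, and 1534, 96 and 15 were higher at E11.5 and 2062, 72 and 17 lower. The counts over all genes thus moved most with the filter on dim signals. Of the 22 further probe sets, 3 in place of 5 had the sign of the highest one at both stages after median centring.

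The shares of neighbours with the sign of their gene stayed within 1.5-fold of the main ones. With 10 neighbours per side they were 54.1% at E12.5, 49.5% at E11.5 and 23.2% at both stages. The shares at E11.5 and at both stages then lay close to the 50% and 23.8% from all genes. Of the medians of the lists, 80 of 80 stayed within the local spread. Of 96 values of the head over whole body level, 25 moved by more than the local spread. Signs turned with the mean over probe sets for *Gsn* (-0.37 in Hand2NC and -0.064 in wild-type), *Ube2d2a* (0.003 in Hand2NC and 0.24 in wild-type), *Ivns1abp* in Hand2NC (-0.18), and *Gtpbp2* (-0.018), *Ap2b1* (-0.11) and *Myh9* (0.66) in wild-type. They also turned for *Ube2d2a* in Hand2NC without _s_at, _x_at and _a_at probe sets (0.002) and for *Ivns1abp* in wild-type with quantile normalization (0.088). The means of *Gsn*, *Ube2d2a* and *Myh9* take in dim signals. At E11.5 these were 2.12 in Hand2NC and 22.8 in wild-type for 1456568_at of *Gsn*. In wild-type they were 45.6 for 1445885_at of *Ube2d2a* and 4.07 for 1440708_at of *Myh9*. No paired analysis was possible because each group has 1 array, and a fit of genotype over both stages was not run.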
